A study of Mus musculus with 2 samples.

Results

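The erythroid transcription factors described here are 8 genes, Gata1, Gfi1b, Tal1, Klf1, Hemgn, Zfpm1, Lmo2 and Ldb1, chosen by name from the 16390 genes that the array annotation named. Each had 1 probe. Transcripts were measured in marrow stromal cells, the connective and supporting cells of bone marrow, of C57BL/6 mice that were unirradiated or had received 9.5 Gy to the whole body 1 or 3 days before. Each time point was 1 array of 2 channels, with unirradiated RNA in Cy5 and irradiated RNA in Cy3 per the labels, and the unirradiated RNA of both arrays may be the same extract. The series used 6 mice in all. The labels state neither their age and sex, nor the pooling of animals per array, nor the step that freed stromal cells of blood-forming ones. With 1 array per time point no value has a replicate error and no test of irradiation could be run, so differences are given by size.

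Red cell development is directed by a small group of DNA-binding proteins and the adaptors that join them. GATA1 binds GATA motifs, and TAL1, a basic helix-loop-helix protein, binds E-boxes. LMO2 and LDB1 carry no DNA-binding domain of this kind and bridge GATA1 and TAL1 into one complex. ZFPM1, also called FOG1, is the cofactor of GATA1, GFI1B is a zinc finger repressor, KLF1 is the activator of adult globin genes and binds CACC boxes, and HEMGN, hemogen, is a nuclear protein of blood-forming cells. GATA1, GFI1B and TAL1 also act in megakaryocytes, and GATA1 in mast cells and eosinophils, whereas LDB1 is made in many cell types and LMO2 and TAL1 also in endothelium.

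The promoter sequences of the 4 factors that stood lowest on the arrays are shown because GATA1, TAL1 and KLF1 are known to bind the motifs searched for in them. Sequences are from RefSeq (GRCm38.p6), 250 bases before to 50 after an annotated start, 5′ to 3′ on the strand of the gene. The table held windows for 7 of the 8 genes, and Lmo2 had none. Capitals mark the GATA hexamers on either strand. These are AGATAA with its sister form AGATAG, and likewise TGATAA with its sister form TGATAG. In Gata1, whose window held no such hexamer, they mark the letters CCNCNCCC.
Hemgn, chr4:46404134-46404433, minus strand: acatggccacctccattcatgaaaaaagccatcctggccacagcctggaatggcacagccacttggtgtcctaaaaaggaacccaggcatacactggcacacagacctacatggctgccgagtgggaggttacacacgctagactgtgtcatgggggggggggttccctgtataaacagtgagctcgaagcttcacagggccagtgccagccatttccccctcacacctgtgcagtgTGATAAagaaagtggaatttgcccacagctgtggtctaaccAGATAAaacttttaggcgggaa
Gfi1b, chr2:28621933-28622232, minus strand: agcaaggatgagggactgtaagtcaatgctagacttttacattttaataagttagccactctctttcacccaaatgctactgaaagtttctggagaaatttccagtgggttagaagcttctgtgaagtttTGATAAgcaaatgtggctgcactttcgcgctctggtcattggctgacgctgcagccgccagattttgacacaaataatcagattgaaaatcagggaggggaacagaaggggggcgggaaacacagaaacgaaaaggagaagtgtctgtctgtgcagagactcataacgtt
Gata1, chrX:7967861-7968160, minus strand: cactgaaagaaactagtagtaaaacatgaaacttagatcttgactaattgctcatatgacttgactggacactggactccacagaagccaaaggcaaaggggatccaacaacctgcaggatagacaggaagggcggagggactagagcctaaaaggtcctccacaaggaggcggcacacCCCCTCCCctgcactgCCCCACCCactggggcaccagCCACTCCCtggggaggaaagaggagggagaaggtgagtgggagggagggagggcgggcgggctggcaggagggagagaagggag
Tal1, chr4:115056176-115056475, plus strand, the first of 2 windows: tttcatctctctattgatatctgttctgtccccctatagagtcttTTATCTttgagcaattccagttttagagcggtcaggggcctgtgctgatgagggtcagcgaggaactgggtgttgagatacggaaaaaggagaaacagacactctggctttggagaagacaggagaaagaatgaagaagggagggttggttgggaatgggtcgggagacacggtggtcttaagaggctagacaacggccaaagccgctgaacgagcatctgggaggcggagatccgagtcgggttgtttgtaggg

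In Hemgn the hexamers began 13 bases before and 28 bases after the start. Gfi1b held 1, which began 120 bases before the start, and the Tal1 window shown held 1 on the reverse strand, 205 bases before it. Klf1 held 1 and the third window of Ldb1 held 2, while Zfpm1 held none. A GATA hexamer was therefore present in 5 of 7 genes, counting every window of a gene, against 33.0% of the 27025 genes in the table and 22.8% of the 7887 in it that had a ratio on both arrays. Of the 186 genes with a window that were at least 2-fold lower on both arrays, 50 (26.9%) held one. The same count gave 26 of 50 (52.0%) for a list of erythroid effector genes and 4 of 27 (14.8%) for a list of proteins that work in complex with the factors. The E-box form CAGCTG occurred in Hemgn alone of the 7, against 18.3% of all genes, and CCACACCC in none, against 4.09%. The looser E-box CANNTG occurred in 6 of 7, against 75.0% of all genes and 68.0% of those with a ratio on both arrays, and CCNCNCCC also in 6 of 7, against 51.9% and 71.7%. CCNCNCCC was in 78.0% of the effector genes and 88.9% of the genes for complex proteins. In Hemgn the CCNCNCCC matches were 4 overlapping ones in a single run of G. A match is a description of these letters and not a bound site, and windows differ in base composition, with a GC content of 44.3% in Gfi1b and 73.7% in Zfpm1.

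Which RNA is the numerator of the deposited log ratio is unstated, as is the base of the logarithm, and folds and percentages here assume base 2. A positive value is taken to mean more transcript in irradiated RNA, because targets of p53, a pathway that radiation activates, had median log2 ratios of 1.52 (day 1) and 1.12 (day 3), while genes of mitosis and replication had -0.05 and -2.67. This direction is likely and not established. With the sign turned, every "lower" here would read "higher", and each percentage of the unirradiated level would be a percentage of the irradiated level.

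Hemgn, Gfi1b and Gata1 stood far below the unirradiated level at both times, and Tal1 less far below it, whereas Lmo2, Zfpm1 and Ldb1 stayed within 2-fold and Klf1 had no ratio. A gene is counted as lower here when its log2 ratio was -1 or below, and as higher when it was 1 or above. On the day 1 array 6 factors had a ratio, and 4 of them counted as lower and none as higher, their median log2 ratio being -2.97. All 10434 genes measured on that array gave 11.1% lower and 19.6% higher, or 30.7% either way. On the day 3 array 7 had a ratio, and 4 counted as lower and none as higher, their median being -1.14. That median was -0.59 with ribosomal protein genes, in place of the median gene, set to 0, and -2.48 without Zfpm1, over genes with a ratio on both arrays. All 11404 genes measured there gave 6.85% lower and 7.35% higher, or 14.2% either way. The median of all genes was set to 0 on each array.

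**Figure D1:**
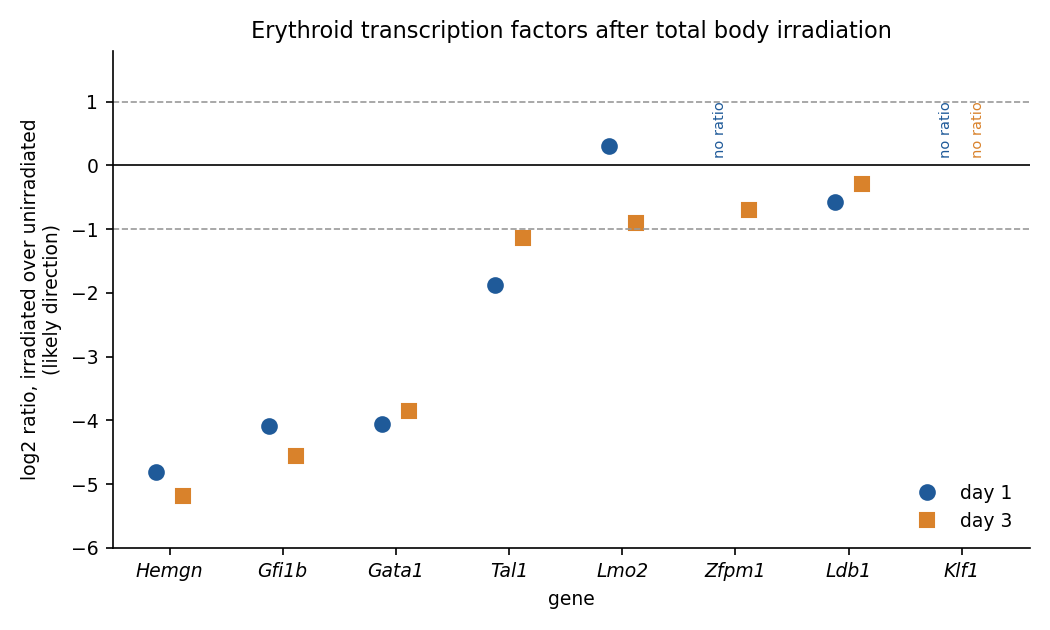
Log2 ratio of each factor on the day 1 array (circles) and the day 3 array (squares), 1 value per array, with dashed lines at 2-fold. Hemgn, Gfi1b and Gata1 sit between -3.85 and -5.19, Tal1 at -1.87 and -1.14, and Lmo2, Zfpm1 and Ldb1 within 2-fold. Klf1 had no ratio on either array.

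Hemgn had a log2 ratio of -4.80 at day 1 and -5.19 at day 3. In linear terms that is 27.9-fold and 36.5-fold lower, or 3.58% and 2.74% of the unirradiated level. It ranked 2 from the lowest on both arrays, above only Car2, a carbonic anhydrase abundant in red cells. Gfi1b, the repressor that recruits histone demethylase and deacetylase complexes, stood at -4.09 and -4.56, or 17.1-fold and 23.6-fold lower. It ranked 3 from the lowest at day 1 and 4 at day 3. Gata1, required for erythroid precursors to survive and mature, stood at -4.06 and -3.85, or 16.7-fold and 14.5-fold lower. Its rank was 4 from the lowest at day 1 and 15 at day 3. Day 1 and day 3 values of these 3 genes lay close together, the largest difference being that of Gfi1b, where day 3 minus day 1 was -0.46.

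Tal1 stood at -1.87 at day 1 and -1.14 at day 3, which is 3.66-fold and 2.20-fold lower, or 27.3% and 45.4% of the unirradiated level. It was the one factor at least 2-fold lower at both times without being at least 8-fold lower. With ribosomal protein genes set to 0 in place of the median gene, which shifted all genes by 0.51 at day 1 and 0.55 at day 3, Tal1 stood at -0.59 at day 3, within 2-fold.

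The adaptors and the cofactor stood nearer to the unirradiated level. Lmo2 stood at 0.30 at day 1 and -0.90 at day 3, on opposite sides of the unirradiated level and within 2-fold each time. Its day 1 value was smaller than the between-probe SD of that array (0.76), so its side there is not resolved. For Lmo2 the day 3 minus day 1 value of -1.20 was the one difference between the time points of at least 2-fold among the 6 factors measured on both arrays. Of all 9800 genes with both values, 16.8% were lower by this measure at day 3 than at day 1 and 12.1% higher, 28.9% in all. Ldb1 stood at -0.58 and -0.29, and at day 3 its sign turned, to 0.26, with ribosomal protein genes at 0. Zfpm1 had a ratio at day 3 only, of -0.70, which is 61.7% of the unirradiated level. An absent ratio was common, since 36.3% of named genes had none at day 1 and 30.4% none at day 3, and no source used here states the filter behind it.

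The one measurable spread was that between different probes of a gene, whose pooled SD was 0.76 (log2, 85 genes) on the day 1 array and 0.58 (116 genes) on the day 3 array. None of the 8 factors had a second probe. At day 1 the gaps from Hemgn to Gfi1b (0.71) and from Gfi1b to Gata1 (0.04) were within that SD, so the order of these 3 is not resolved, while the gap from Gata1 to Tal1 was 2.19. At day 3 the gaps from Hemgn to Gfi1b (0.63) and from Gfi1b to Gata1 (0.70) were just over it. A gap between 2 genes carries the spread of both probes, and the SD holds no array or animal error. The day 3 order of these 3 is thus not resolved either. The gap from Gata1 to Tal1 was 2.71, and each of the gaps from Tal1 to Lmo2 (0.24), Lmo2 to Zfpm1 (0.21) and Zfpm1 to Ldb1 (0.41) was within the SD. In a mixed cell sample, fewer cells of a type and less RNA per cell cannot be told apart.

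**Figure D2:**
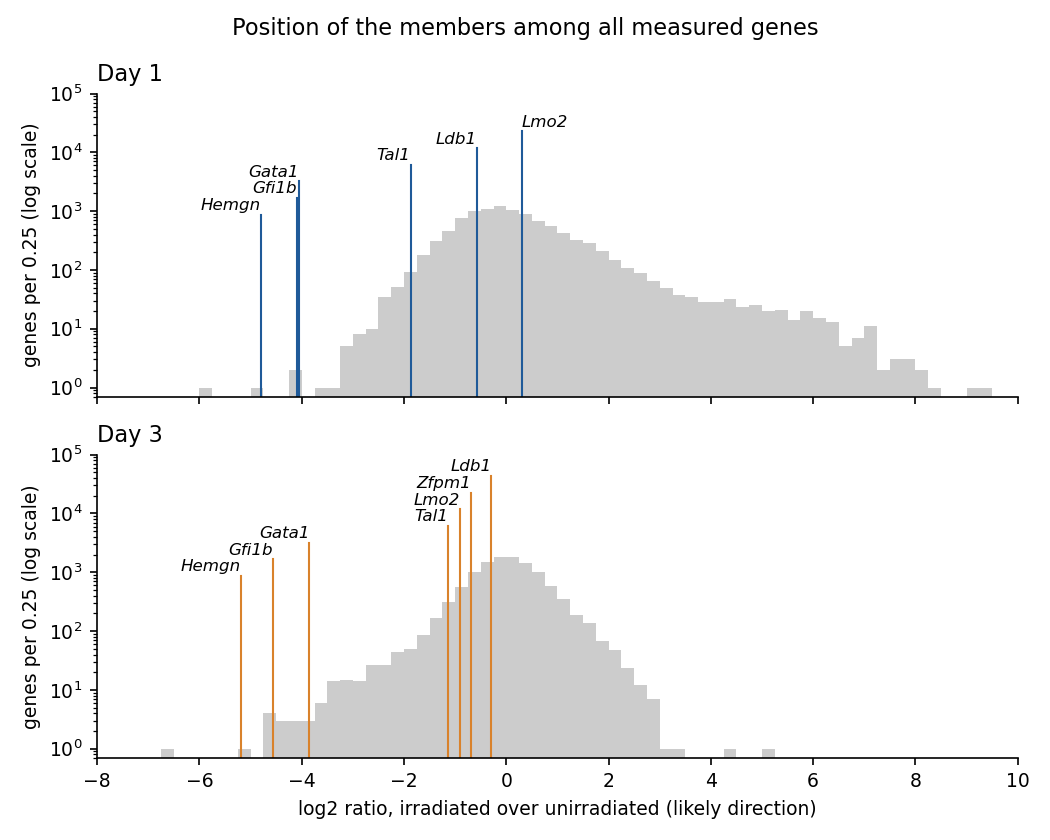
Number of genes (log scale) per 0.25 of log2 ratio on each array, with a line at each factor that had a ratio. Hemgn, Gfi1b and Gata1 lie in the thin lower tail on both arrays, and Lmo2, Zfpm1 and Ldb1 lie within 2-fold. At day 3 Lmo2 (percentile 8.37 from the lowest) and Zfpm1 (13.3) lie near Tal1 (5.02).

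At a stricter size, chosen after the values were seen, 3 of the factors were at least 8-fold lower at day 1, as were 11 genes in all (0.105%). At day 3 the count was 3 factors among 50 genes (0.438%). Just 5 of the 9800 genes passed this size on both arrays, namely Car2, Hemgn, Gfi1b, Gata1 and Abcb4, a phospholipid transporter. The genes with values nearest to those of Gata1, by Euclidean distance over the 2 log2 ratios among 9592 other genes, were Gfi1b (0.71), the tetraspanin Tspan33 (1.25), Abcb4 (1.28), the haem synthesis enzyme Alad (1.48) and Hemgn (1.53). Those nearest to Gfi1b were Gata1, Hemgn (0.95), Abcb4 (1.83), Tspan33 (1.89) and the carboxypeptidase Cpz (2.03). Those nearest to Hemgn were Gfi1b, Gata1, Car2 (1.82), Abcb4 (2.76) and Tspan33 (2.78). As just 5 genes lay that low on both arrays, the lists of nearest genes partly restate that count. Both arrays hold unirradiated RNA that may be shared, so nearness over 2 values describes these arrays only.

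Most genes for proteins that work in complex with the factors were within 2-fold of the unirradiated level, 19 of 25 at day 1 and 23 of 26 at day 3. So were most of all genes, 7230 of 10434 and 9785 of 11404, so this is not particular to the partners. Day 1 ratios were present for 25 of 28 partner genes, of which 1 counted as lower and 5 as higher, beside 11.1% and 19.6% of all genes. The median of the 25 was 0.23. At day 3, 26 had a ratio, with 1 lower (Lyl1, -1.75) and 2 higher, beside 6.85% and 7.35% of all genes. The median of the 26 was -0.04. Setting ribosomal protein genes to 0 made these medians 0.74 and 0.51. The chromatin remodelling subunit Mta1 (-1.36 at day 1, -0.21 at day 3), the histone-binding protein Rbbp4 (-0.59 and -0.84) and the LDB1 partner Ssbp3 (-0.52, day 3 only) were the lowest by the mean of the available arrays. Gata2 (2.31 and 1.87), the progenitor GATA factor, Etv6 (2.41 and 0.81), a repressor of the ETS family, and Tcf4 (0.53 and 1.79), an E protein that can pair with TAL1, were the highest. Crebbp, a histone acetyltransferase, was also at least 2-fold higher at day 1 (1.15) and is named after its value was seen. With ribosomal protein genes at 0 the count of partners at least 2-fold lower at day 1 was 0 and that of partners higher was 9. All 10434 genes then gave 373 lower and 3323 higher.

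Other regulators of erythroid and progenitor cells went both ways. The day 1 array placed 8 of 31 lower and 11 higher around a median of 0.09, beside 11.1% and 19.6% of all genes. With ribosomal protein genes at 0 the split was 3 lower and 14 higher, beside 373 and 3323 of all 10434 genes. Epor, the erythropoietin receptor that GATA1 is known to activate, was lowest at -2.80 at day 1 and -1.79 at day 3. E2f4, a cell cycle factor needed for red cell maturation, stood at -1.44 and -2.14, and Zfp36l2, an RNA-binding protein of erythroid progenitors, at -1.90 and -0.52. At the other end were Gfi1 (5.12 and 1.06), the myeloid factor Spi1 (5.02 and -0.43), which is known to antagonise GATA1, and Nfe2 (3.92, day 1 only), the globin and platelet factor. The day 3 array placed 3 of 31 lower and 4 higher, beside 6.85% and 7.35% of all genes. With ribosomal protein genes at 0 the split was 3 and 12, beside 273 and 2665 of all 11404 genes. Named after their values were seen, the remaining genes outside 2-fold at day 3 were Ikzf1 (-1.88), lower, and Kit (1.18), Fli1 (1.18) and Bach1 (1.05), higher.

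**Figure D3:**
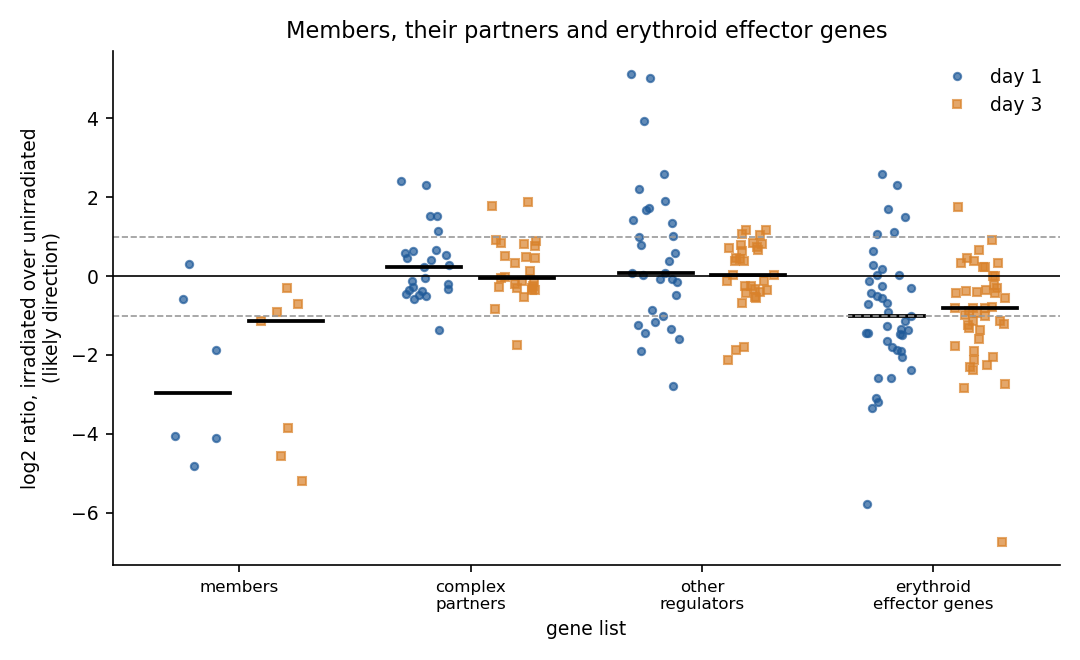
Log2 ratios of the factors, their complex partners, other regulators and erythroid effector genes on the day 1 (circles) and day 3 (squares) arrays, 1 point per gene, with bars at the medians and dashed lines at 2-fold. Medians of the partners (0.23 and -0.04) and of the other regulators (0.09 and 0.04) lie near 0, and those of the effector genes (-1.01 and -0.82) below it.

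Genes that carry out the red cell programme, many of them known targets of GATA1, TAL1 or KLF1, had medians of -1.01 at day 1 and -0.82 at day 3, below that of all genes. Day 1 ratios were present for 41 of 56, and 21 of these (51.2%) counted as lower and 6 as higher, beside 11.1% lower among all genes. The day 3 count was 17 of 44 (38.6%) lower and 1 higher, beside 6.85%. With ribosomal protein genes at 0 the day 1 counts were 12 lower and 7 higher, beside 373 (3.57%) and 3323 of all 10434 genes. The day 3 counts were then 11 lower and 4 higher, beside 273 (2.39%) and 2665 of all 11404 genes. The medians of the effector genes became -0.50 and -0.27. Car2 (-5.77 and -6.73), Tspan33 (-3.34 and -2.83) and Alad (-3.08 and -2.74) were the lowest by the mean of the available arrays. The highest were Abcb10 (1.75, day 3 only), a mitochondrial transporter, Ncoa4 (2.59 and 0.47), the receptor for ferritin breakdown, and the ubiquitin ligase Ube2o (1.07, day 1 only). Within this list, haem and iron genes had medians of -1.44 at day 1 and -1.14 at day 3, and membrane and surface genes -1.44 and -0.99. Slc4a1, the band 3 anion exchanger, stood at -1.88 and -0.78, and Alas2, the first enzyme of erythroid haem synthesis, at -1.14 at day 3. No probe was named for a globin gene, and 10 of the 56 genes had no ratio on either array.

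The nearest measured relatives of Gata1 and Gfi1b stood on the other side of the unirradiated level. Gata2 stood at 2.31 and 1.87 where Gata1 stood at -4.06 and -3.85, and GATA2 is known to precede GATA1 in the erythroid lineage. Gata6 stood at 0.08 and 0.45, and Gata5 at 1.53 at day 1. Gfi1, the repressor of granulocyte and lymphoid cells, stood at 5.12 and 1.06 where Gfi1b stood at -4.09 and -4.56, so that on both arrays the pair lay on opposite sides of 2-fold. Lyl1, the nearest relative of TAL1 in blood cells, stood at 1.53 at day 1 and -1.75 at day 3, and Tal2 at -0.88 at day 3. Lmo4 stood at 1.52 and 0.51, Lmo3 at 1.39 at day 1, Ldb2 at -0.08 and 1.47, and Zfpm2 at -0.96 and 0.29.

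Klf1 had no ratio, but 13 of its 14 relatives on the array had one at each time. On the day 1 array 6 of the 13 counted as higher and 1 as lower, beside 19.6% and 11.1% of all genes. The median of the 13 was 0.91. The highest were Klf5 (2.35) and Klf17 (1.96), and the lowest was Klf15 (-1.53). At day 3 none of the 13 was outside 2-fold, beside 14.2% of all genes, and values ran from -0.16 for Klf10 to 0.92 for Klf17. With ribosomal protein genes at 0, 6 of the 13 were higher, beside 2665 of all 11404 genes. Probe sequences were not analysed here, so cross-hybridisation between relatives was not assessed.

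**Figure D4:**
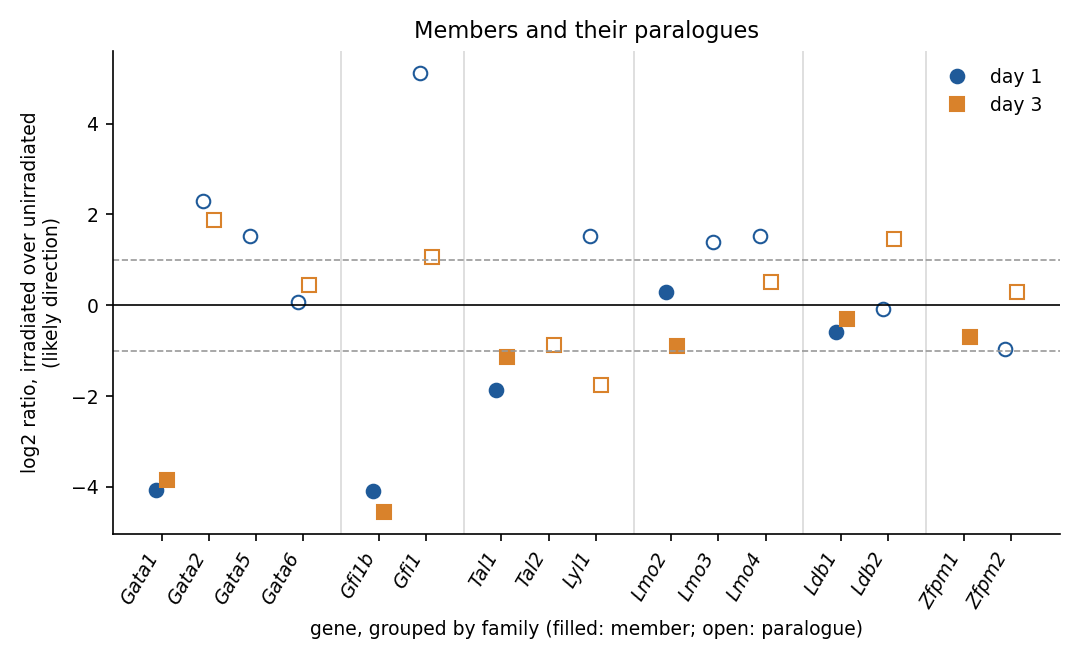
Log2 ratios of the factors (filled) and their relatives of the same family (open) on the day 1 (circles) and day 3 (squares) arrays, with dashed lines at 2-fold. Gata2 and Gfi1 lie above the upper line on both arrays, where Gata1 and Gfi1b lie at -3.85 or below.

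The label of the factors as erythroid was set against markers of the lineages that share them. At day 1 a ratio was present for 6 of 11 erythroid markers, and all 6 counted as lower (median -2.99), as did 6 of 7 at day 3 (median -1.79). All genes gave 11.1% lower and 19.6% higher at day 1, and 6.85% and 7.35% at day 3. Every measured erythroid marker is also in the effector list or, for Epor, in the list of other regulators. The erythroid marker counts are therefore not separate from those given above. Megakaryocyte and platelet markers had medians of 0.40 at day 1 and -0.49 at day 3. Of these, 1 of 11 and 3 of 10 counted as lower, and 3 of 11 and 1 of 10 as higher. Their lowest gene was the platelet chemokine Ppbp (-2.01 and -1.12). Their highest were Nfe2 (3.92, day 1 only), also in the list of other regulators, and Selp, P-selectin (0.49 and 1.48). Mast cell, basophil and eosinophil markers were higher at day 1 in 5 of 7 genes, with a median of 2.93, led by the mast cell protease Cpa3 (5.03), and had a median of -0.01 at day 3. Endothelial markers, in a tissue that also makes LMO2 and TAL1, had medians of 0.66 and 1.66, and 6 of 18 and 18 of 20 counted as higher, including Robo4 (1.57 and 2.27). Erg, an endothelial and stem cell factor, stood at -1.30 at day 3.

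Markers of other cells moved on the same arrays. Granulocyte markers counted as higher in 17 of 17 genes at day 1 (median 6.18) and as lower in 7 of 13 at day 3 (median -1.36). Pan-leukocyte markers had a median of 5.23 at day 1, with 16 of 16 higher, and -0.25 at day 3. Of 17 mesenchymal stromal markers on the array 15 had a ratio at each time, with medians of -0.50 and 0.29. The first of these medians turned to 0.01 with ribosomal protein genes at 0. At day 1 the 4 lowest factors and the leukocyte markers thus stood on opposite sides of the median gene. At day 3, 22 of 24 genes of mitosis and replication counted as lower, beside 6.85% of all genes. That list helped to set the sign of the ratio, so its own direction is no result here. The part of such shifts in marker lists in the values of the factors was not tested. The values are ratios without intensities, so no level of any marker is known and neither the purity of the stromal cells nor a signal at background could be examined.

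**Figure D5:**
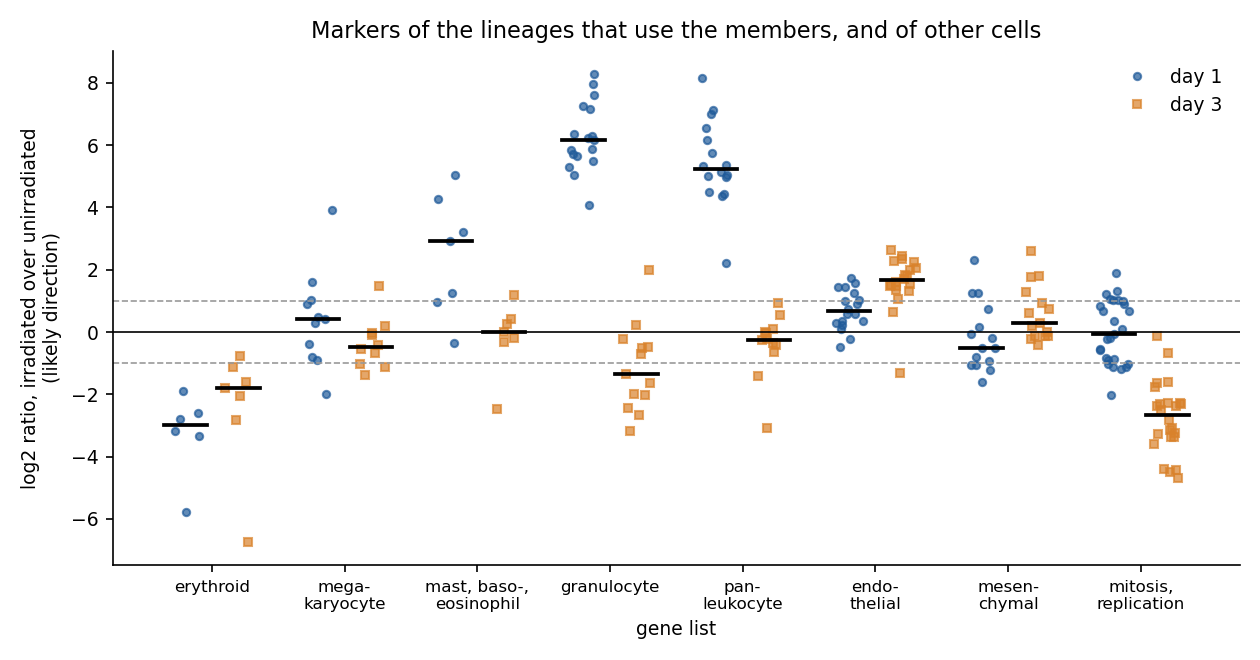
Log2 ratios of marker genes by cell type on the day 1 (circles) and day 3 (squares) arrays, 1 point per gene, with bars at the medians and dashed lines at 2-fold. Erythroid markers have medians of -2.99 and -1.79, granulocyte markers 6.18 and -1.36, and megakaryocyte markers 0.40 and -0.49.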

How the data were processed

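Each deposited value is a probe's log ratio between the 2 channels, already centred, with medians over 23473 probes of 0.0003 at day 1 and -0.0001 at day 3. The deposited ratios are read as log2 values. Log base, numerator, scanner, normalisation, background treatment and the rule for leaving entries empty are not given in the sources used here. RNA was amplified as amino allyl RNA and coupled to dyes, per the labels' protocols.

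The platform annotation named 16631 probes, of which 3947 were updated from an older symbol through RefSeq genes (GRCm38.p6). Probes of a gene were averaged and the gene median subtracted (-0.01 at day 1, 0.02 at day 3). At least 2-fold, a log2 ratio of 1 in size, was the size rule. The rule was tested on simulated data, drawn as normal values with the between-probe SD and with genes planted lower. Those data held no array, dye or animal error, so the test does not show how the rule performs on these arrays. Code ran in Python 3.11.15 with pandas 2.3.3 and SciPy 1.17.1.

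The factors, lists and tests were chosen with earlier results of these data known. Named genes are every factor and measured relative, the 3 highest and 3 lowest of each gene list, some of the 2 highest and 2 lowest markers of each cell type (ranked by their mean over arrays), and the 5 nearest genes, passing over clones and predicted genes. Other relatives of KLF1 are given by range. Alternatives were other zeros, other probe summaries, genes on both arrays, current symbols, and 1.5-fold and 3-fold rules.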

Additional observations from a re-analysis of the deposited data

Results flagged for a closer look

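Values on opposite sides of the unirradiated level at the 2 time points drew attention in 4 cases among the factors, the genes of the partner, regulator, effector and relative lists, and the list medians. None of these differences was tested, since each time point is 1 array. Lmo2 stood at 0.30 at day 1 and -0.90 at day 3. Its day 1 value was smaller than the between-probe SD of that array (0.76), so its side there is not resolved. The share of all genes that changed sign was not counted, and the 2 arrays correlated weakly over genes (Pearson r 0.32). Lyl1 stood at 1.53 and -1.75, and the lymphoid factor Ikzf1 at 2.59 and -1.88. The median of granulocyte markers was 6.18 at day 1 and -1.36 at day 3. Apart from the 8 factors, a case needed both values to be at least 2-fold in size, and single cell type markers were not searched.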

How the results depend on the processing

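No paired analysis was possible because each time point is 1 array. Over the other zeros, probe summaries, gene sets and names tried, Hemgn, Gfi1b and Gata1 stayed between -5.20 and -3.31 on both arrays, and the count of factors at least 2-fold lower was 4 or 3. With ribosomal protein genes at 0, effector genes at least 2-fold lower numbered 12 at day 1 and 11 at day 3, and partners 0 at day 1. A 3-fold rule also gave 12, 11 and 0 partners at day 1. A 1.5-fold rule gave 2 partners at each time, 24 and 25 effector genes, and 4 factors at day 1 but 6 at day 3. Shares of all genes at 3-fold and 1.5-fold were not counted, so these counts cannot be set against a background. The median of the factors at day 3 was -2.48 over genes on both arrays, because Zfpm1 drops out there. The share of higher genes among all genes past 2-fold was 63.9% at day 1 and 51.8% at day 3. With ribosomal protein genes at 0 it was 89.9% and 90.7%, and with the density peak at 0, a shift of 0.19 at day 1, it was 76.0% at day 1. The number of arrays limits the precision.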

Other observations

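Markers of other cells of the marrow are given as values. Monocyte and macrophage markers had medians of 2.97 at day 1 and 0.87 at day 3. Among them were genes made by the macrophages around which red cells mature, named after their values were seen. These included the haemoglobin scavenger receptor Cd163 (2.23 and 0.82), the adhesion molecule Vcam1 (-0.08 and 0.92) and the phagocytic receptor Mertk (0.07 and 1.04). Vcam1 is also in the mesenchymal stromal list, so it marks no single cell type here. The lowest of the list were Axl (-0.43 and 0.21) and Csf1r (0.78 and -0.20). Its highest were Ccr2 (6.17) and Itgam (5.65), both measured at day 1 only. Adgre1 and Spic had no ratio. Stem and progenitor markers, a list that holds Tal1, Lmo2 and Gata2, had medians of 0.30 and 0.66. B cell markers had medians of 0.13 and -0.25 over 6 and 5 genes, and T and NK cell markers 2.53 and 0.29 over 4 and 6 genes. Osteoblast markers had medians of -1.13 and -0.36, and adipocyte markers 0.27 and 1.10.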
